A study of Homo sapiens with 95 samples.

Results

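The comparison described here set AALE cells overexpressing NRF2 against AALE cells carrying an empty vector with the HcRed reporter, both kept in the DMSO vehicle. It rested on 6 of the 95 wells of the series, 3 NRF2 wells and 3 HcRed wells, taken by the construct, chemical and replicate number in their titles. AALE is an immortalized human bronchial epithelial line. Gene expression was measured by 3′ digital gene expression (3′DGE), in which transcripts are sequenced near their 3′ end after tagging with a well barcode and a molecular identifier (UMI), so that copies of 1 molecule count once. The series held 8 populations: overexpression of NRF2, FGFR1, NRG1 or PIK3CA, the HcRed control for these, CRISPR knockouts of FAT1 or CDKN2A, and a control for those that received a Cas9-EGFP plasmid without a guide. The vehicle wells of all 8 populations numbered 24. NRF2 and HcRed wells were also exposed to cigarette smoke condensate (CSC, 24 µg/ml) or to the tobacco nitrosamine NNK (490 µM), 3 wells each. These CSC and NNK wells served as further samples of the same contrast. Wells of both populations exposed to benzo[a]pyrene (BaP), a further chemical of the series, entered no comparison and are described at the end.

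Each construct was represented by 1 population, and the HcRed and NRF2 vehicle wells sat in neighbouring rows of the plate (A and B in the well identifiers). A difference made by the transgene, a difference between the populations and a difference of plate position therefore cannot be told apart. The study calls the wells of a condition biological replicates, and the labels do not say whether they were cultured separately. The p-values therefore rest on spread between these wells, which may be technical. For each gene the fit drew this spread mostly from all genes together (67.6 prior against 4 residual degrees of freedom). A printed standard error or p-value can thus differ from what that gene's own wells would give. The wells were bulk lysates, in which fewer cells of a kind and less RNA per cell cannot be told apart.

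NRF2, encoded by NFE2L2, is a transcription factor that is held by KEAP1 and degraded through the CUL3 ubiquitin ligase in unstressed cells. Oxidants and electrophiles modify KEAP1, and the NRF2 that escapes pairs with a small MAF protein and binds antioxidant response elements. Its known target genes make and recycle glutathione, run the thioredoxin system, reduce quinones and carbonyls, supply NADPH, store iron and export conjugates. In the airway it is known as a regulator of the response to smoke, and it is activated by mutation in some squamous lung cancers.

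The 6 wells were of similar depth. The NRF2 wells held 1270748 to 1469805 UMIs and the HcRed wells 1168645 to 1359967, within a range of 692446 to 1895735 over the series. Cytosolic ribosomal protein transcripts made up 31.7% to 31.9% of the UMIs of NRF2 wells and 30.6% to 30.9% of those of HcRed wells, so the groups did not overlap in this share. Of 12 airway basal cell markers, 11 were measurable, and they summed to 5206 to 5387 CPM (UMIs scaled to a common library size by the TMM method) in NRF2 wells and 5839 to 6394 in HcRed wells. S100A2 made up most of this sum, at 4371, 4273 and 4314 CPM in NRF2 wells against 5501, 4901 and 5055 CPM in HcRed wells, and without it the list summed to 892 to 1035 CPM and 893 to 937 CPM, with overlap. Among them KRT5 and TP63, which mark basal cells, were not called different (log2 fold changes of -0.15 and -0.09). KRT17 was higher, while LAMB3, ITGA6 and S100A2 were lower. Marker lists of other cells were close to absent: the fibroblast, endothelial, ciliated and alveolar lists each summed to at most 5.26 CPM in each of the 6 wells, the secretory list to at most 15 CPM and the leukocyte list to at most 24 CPM. Each of these lists had between 0 and 2 measurable genes, and none of those was called. SCGB1A1, FOXJ1, SFTPC and PTPRC, which define secretory, ciliated, alveolar and blood cells, had no UMI in the 6 wells. Whether the lower S100A2 level had a part in other results was not tested.

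NFE2L2 was the targeted gene and was more abundant in every NRF2 well. It reached 154, 142 and 168 CPM in the NRF2 wells against 35.3, 44.1 and 50.3 CPM in the HcRed wells (log2 fold change 1.84 ± 0.13 SE, limma-voom adjusted p = 8.77e-19). The 21 vehicle wells of the other 7 populations held 24.2 to 57.8 CPM, so no other well approached the NRF2 wells. The counts do not separate transcripts of the construct from those of the endogenous gene.

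Of 61 listed NRF2 targets, 50 had a mean count above 1 in the 6 wells and were tested, and 5 of them were higher and 1 lower in NRF2 wells. Over all 11217 genes tested, 3.39% were called higher and 1.52% lower at a Benjamini-Hochberg adjusted p below 0.05. Among the 3388 genes of at least 20 CPM, which hold every called target, 10.6% were higher and 3.25% lower. The median log2 fold change of the 50 targets was 0.096, against -0.0087 over all genes tested and 0.049 over those of at least 20 CPM. The called targets were FTL, FTH1, TXN, PRDX1 and GSTA4 on the higher side and GSTP1 on the lower side. The remaining 44 tested targets did not pass the threshold. With a cyclic loess normalization in place of TMM, a setting that removes a dependence of fold change on abundance, 2 targets were called higher and 2 lower.

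**Figure D1:**
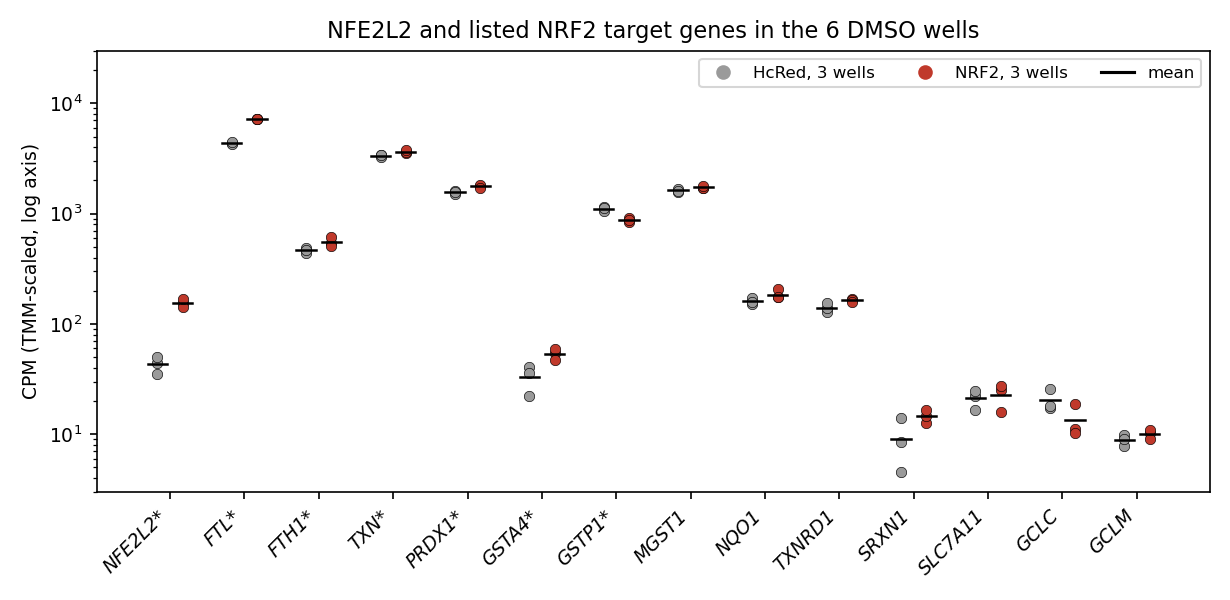
CPM on a log axis for NFE2L2 and 13 listed NRF2 targets in the 6 vehicle wells; each point is 1 well, bars mark group means, and an asterisk marks a gene called different. NFE2L2 and FTL were clearly separated between the groups, GSTP1 lay lower in NRF2 wells, and GCLC and GCLM overlapped.

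The targets of iron storage gave the largest difference in transcript number. FTL, the ferritin light chain, stood at 7222, 7250 and 7186 CPM in NRF2 wells and at 4354, 4242 and 4422 CPM in HcRed wells (log2 fold change 0.75 ± 0.020 SE, adjusted p = 2.4e-44). FTH1, the ferritin heavy chain, stood at 540, 609 and 508 CPM against 443, 487 and 465 CPM. Its difference was small (0.26 ± 0.062, adjusted p = 0.00313) and no longer passed without NRF2 replicate 2 (0.20, adjusted p = 0.117) or with loess normalization (0.15, adjusted p = 0.187). TFRC, the transferrin receptor that brings iron into the cell, was also more abundant, at 45, 51.6 and 40.7 CPM against 22.1, 30.6 and 29.3 CPM (0.75 ± 0.18, adjusted p = 0.00319). TFRC is no listed NRF2 target and was named after its values were seen. The heme enzymes in the list, BLVRA, BLVRB and FECH, had log2 fold changes between -0.08 and 0.06 and were not called. HMOX1, the inducible heme oxygenase, was seen as 2 UMIs in NRF2 replicate 1 and as none in the other 5 wells, so it was not tested.

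In the thioredoxin system all 5 tested genes had positive log2 fold changes, and 2 of them were called. PRDX1, a peroxiredoxin that removes peroxides, stood at 1778, 1800 and 1712 CPM in NRF2 wells against 1609, 1508 and 1572 CPM in HcRed wells (0.19 ± 0.038, adjusted p = 0.000174). TXN, thioredoxin itself, stood at 3546, 3585 and 3759 CPM against 3408, 3294 and 3372 CPM (0.13 ± 0.026, adjusted p = 0.000386). Both calls depended on the scaling: with loess normalization the log2 fold change of TXN turned to -0.03 and that of PRDX1 fell to 0.05, and neither was called. TXNRD1, thioredoxin reductase, lay higher in every NRF2 well, at 170, 165 and 157 CPM against 128, 138 and 155 CPM, yet did not pass (0.24 ± 0.096, adjusted p = 0.167). SRXN1, sulfiredoxin, had 0.85 ± 0.32 (adjusted p = 0.128) at 12.6, 14.6 and 16.7 CPM against 13.9, 8.54 and 4.5 CPM, with overlapping wells. PRDX2, a peroxiredoxin outside the list that was named after its values were seen, was called higher at 184, 149 and 145 CPM against 97.6, 105 and 92.4 CPM (0.69 ± 0.11, adjusted p = 9.6e-07).

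None of the 7 tested genes of glutathione synthesis and recycling was called. GCLM, the modifier subunit of the enzyme that starts glutathione synthesis, was at 10.3, 9.06 and 10.9 CPM in NRF2 wells and 9.84, 7.83 and 9.01 CPM in HcRed wells (0.19 ± 0.32, adjusted p = 0.847). GCLC, its catalytic subunit, was at 18.9, 11.2 and 10.2 CPM against 17.2, 25.6 and 18.0 CPM (-0.64 ± 0.26, adjusted p = 0.177). SLC7A11, the cystine importer, was at 15.8, 25.1 and 27.6 CPM against 16.4, 22.1 and 24.8 CPM (0.11 ± 0.22, adjusted p = 0.876). At these counts, the standard errors of GCLM and GCLC leave a change of the size seen for GSTA4 hard to detect.

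None of the 11 tested quinone and carbonyl reductases was called either. NQO1, the quinone reductase often used as a readout of NRF2 activity, lay at 174, 206 and 174 CPM in NRF2 wells and at 151, 173 and 157 CPM in HcRed wells, without overlap but short of the threshold (0.22 ± 0.091, adjusted p = 0.198). AKR1B10, an aldo-keto reductase, had 0.69 ± 0.28 (adjusted p = 0.19), while ALDH3A1, an aldehyde dehydrogenase, had -2.35 ± 0.86 (adjusted p = 0.114) at no more than 5.69 CPM in any well. The 6 genes of NADPH supply were not called, with log2 fold changes from -0.35 for ME1, malic enzyme, to 0.27 for TALDO1, transaldolase. IDH1, an isocitrate dehydrogenase that makes NADPH, came nearest the threshold on the lower side (-0.23 ± 0.073, adjusted p = 0.0509).

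The conjugating enzymes held calls in both directions. GSTA4, a glutathione transferase acting on lipid peroxidation aldehydes, was at 54.5, 59.2 and 47.2 CPM in NRF2 wells against 22.1, 40.6 and 36.0 CPM in HcRed wells (0.73 ± 0.17, adjusted p = 0.00279). All NRF2 wells lay above the 21 other vehicle wells, which reached 41.5 CPM. The call rested in part on HcRed replicate 1, without which the log2 fold change was 0.51 (adjusted p = 0.102). GSTP1, the pi-class glutathione transferase, was at 847, 904 and 867 CPM against 1067, 1142 and 1114 CPM (-0.33 ± 0.046, adjusted p = 5.46e-08). MGST1, a microsomal glutathione transferase, was at 1693, 1720 and 1768 CPM against 1678, 1577 and 1618 CPM and was not called (0.11 ± 0.037, adjusted p = 0.095). The genes that feed back on NRF2 itself, with KEAP1, MAFG and SQSTM1 among them, gave no call in 6 tested, and its partners and regulators, CUL3 and BACH1 among them, gave none in 11.

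The motif TGACNNNGC, the core of the antioxidant response element, was looked for on both strands of the stretch from 250 bases before to 50 bases after each gene's start (RefSeq, GRCh38.p14). It stood in 13.3% of all 35116 promoter entries. A gene counted as carrying it when any of its entries did, so shares of genes are not comparable with this share of entries. Of the 9066 tested genes that had an entry, 19.4% carried it. So did 61 of 312 genes called higher (19.6%) and 36 of 137 called lower (26.3%). Of the 61 listed targets 49 had an entry and 20 of these carried it (40.8%). Among the tested targets it was 15 of 39 (38.5%). A match is a description of letters in a window. Below are 4 of the matches, given as 69 bases read 5′ to 3′ along the gene's strand with the motif in capitals, to set a target called higher and one called lower beside a pair that was not called.
GSTA4, called higher, chr6:52995255-52995323, minus strand, motif 9 bases before the start: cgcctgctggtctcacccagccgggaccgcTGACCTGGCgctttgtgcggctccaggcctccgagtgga
GSTP1, called lower, chr11:67583716-67583784, plus strand, motif 66 bases before the start: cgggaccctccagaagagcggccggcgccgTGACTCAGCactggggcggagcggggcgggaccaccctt
TXNRD1, not called, chr12:104286900-104286968, plus strand, motif 102 bases before the start: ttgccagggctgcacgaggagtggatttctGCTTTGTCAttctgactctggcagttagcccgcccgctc
GCLM, not called, chr1:93909426-93909494, minus strand, motif 34 bases before the start: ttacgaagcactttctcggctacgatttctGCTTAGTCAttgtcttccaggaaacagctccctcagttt
TXNRD1 and GCLM carry it on the opposite strand, where it reads as GCNNNGTCA. The TXNRD1 window lies before the downstream one of the starts listed for that gene. These 4 were chosen among genes with a match, so they cannot show how often called targets carry the motif. Of the targets called higher, GSTA4 was among the 15 tested targets with a match. FTL, FTH1, TXN and PRDX1 were not, for lack of either a match or an entry.

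Beyond the targets, 551 genes were called (4.91% of those tested), 380 higher and 171 lower, and 1692 genes had an unadjusted p below 0.05. The higher and lower calls differed in kind. Higher calls were mostly small changes of abundant transcripts, with a median log2 fold change of 0.34 and a median of 349 CPM, while lower calls were larger changes of rarer transcripts, with medians of -0.79 and 39.3 CPM. Only 23 of the 380 were higher by 1 or more on the log2 scale, against 59 of the 171 that were lower by as much. In 374 of the higher and 165 of the lower genes the wells of the groups did not overlap. The split itself depended on the scaling: with loess normalization 222 genes were higher and 223 lower. In the most abundant eighth of genes, those of at least 70.8 CPM, 306 genes were higher and 60 lower, with a median of 0.09, and in the eighth below it 47 were higher and 39 lower.

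**Figure D2:**
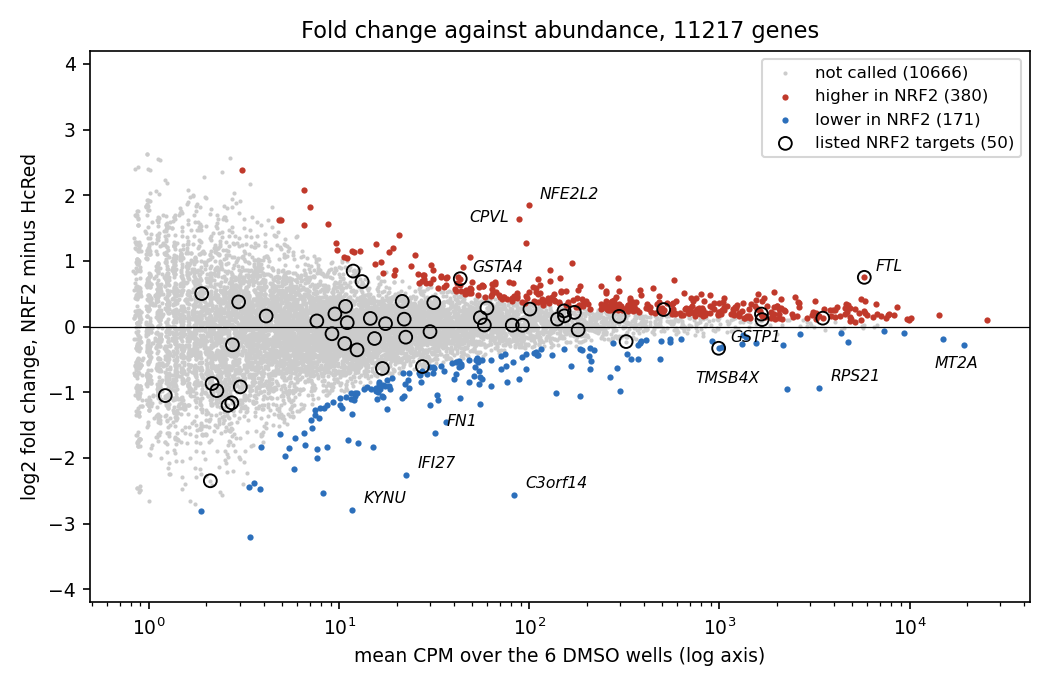
Log2 fold change, NRF2 minus HcRed, of each tested gene against its mean CPM over the 6 vehicle wells on a log axis; red and blue points are the 380 higher and 171 lower calls, and rings mark the 50 tested NRF2 targets. Higher calls gather at the abundant end with small fold changes, and lower calls reach larger fold changes at lower abundance.

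Among genes of at least 20 CPM whose wells did not overlap, the largest increases after NFE2L2 fell on a mixed set. CPVL, a serine carboxypeptidase, stood at 135, 133 and 131 CPM in NRF2 wells against 45.9, 37 and 46.6 CPM in HcRed wells (1.64 ± 0.13, adjusted p = 1.21e-16). NR2F2, the nuclear receptor COUP-TFII, stood at 28.4, 30 and 31.3 CPM against 11.5, 13.5 and 9.01 CPM (1.40 ± 0.25, adjusted p = 2.26e-05). SPARC, a secreted matrix-associated glycoprotein, stood at 121, 142 and 145 CPM against 56.6, 49.1 and 65.3 CPM (1.28 ± 0.13, adjusted p = 4.24e-13). For each of these genes every NRF2 well exceeded every HcRed well by a wide margin. HIST1H1A, a linker histone, stood at 226, 218 and 215 CPM against 130, 105 and 108 CPM (0.96 ± 0.10, adjusted p = 8.75e-13). The other genes of this set were KRT7, PUS3, SERPINI1, SLC6A15, SPA17, STT3A and the ribosomal RNA precursor RNA45S5, whose log2 fold changes ran from 0.86 for RNA45S5 and for STT3A to 1.09 for PUS3. A precursor of ribosomal RNA is not polyadenylated as messenger RNA is, and its counts of 18.5 to 52.9 CPM say little of its level.

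The largest decreases included genes of very different function. C3orf14 was at 22.9, 20.2 and 28.3 CPM in NRF2 wells against 144, 145 and 138 CPM in HcRed wells (-2.56 ± 0.16, adjusted p = 7.4e-22). IFI27, an interferon-inducible gene, was at 6.32, 9.76 and 6.54 CPM against 33.6, 36.3 and 42.8 CPM (-2.26 ± 0.28, adjusted p = 1.89e-09). KYNU, kynureninase of the tryptophan pathway, was named after its values were seen and was at 3.95, 2.09 and 2.18 CPM against 25.4, 19.9 and 16.5 CPM (-2.79 ± 0.44, adjusted p = 1.27e-06). In none of these did the groups overlap. TMSB4X, thymosin beta 4, which binds actin monomers, was at 1524, 1531 and 1520 CPM against 2875, 2964 and 3102 CPM (-0.95 ± 0.034). CCND1, cyclin D1, was at 16.6, 21.6 and 22.5 CPM against 56.6, 42.7 and 37.5 CPM (-1.11 ± 0.20, adjusted p = 2.62e-05). AREG, amphiregulin, a ligand of the EGF receptor, was lower as well (-0.91 ± 0.14, adjusted p = 1.18e-06), as were WDR66 (-1.19), SAA1 (-1.09), an acute-phase protein, and PFKP (-1.06), a phosphofructokinase of glycolysis.

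Genes of the basement membrane and of cell attachment were called more often on the lower than on the higher side. Of 31 tested matrix and integrin genes 8 were lower and 2 higher, with a median log2 fold change of -0.63. Over all genes tested 3.39% were higher and 1.52% lower, and among those of at least 20 CPM 10.6% and 3.25%. These shares also stand beside the gene list counts of the next paragraphs. LAMB3 and LAMA3 encode laminin chains of the epithelial basement membrane. LAMB3 was at 19.7, 17.4 and 21.1 CPM in NRF2 wells against 50.8, 55.5 and 54.8 CPM in HcRed wells (-1.45 ± 0.19, adjusted p = 9.54e-09). LAMA3 was at 30.8, 56.5 and 37.1 CPM against 76.3, 74.0 and 64.6 CPM (-0.79 ± 0.16, adjusted p = 0.000153). ITGB1, an integrin subunit that binds matrix, was at 120, 138 and 135 CPM against 194, 193 and 216 CPM (-0.60 ± 0.094, adjusted p = 1.39e-06). ITGA6, the alpha subunit of laminin receptors, changed less (-0.51 ± 0.15, adjusted p = 0.0228), and its call was lost on leaving out HcRed replicate 3 (-0.47) or NRF2 replicate 2 (-0.51) or 3 (-0.46). FN1, fibronectin, was at 14.2, 14.6 and 16.7 CPM against 39.4, 63.3 and 42.0 CPM (-1.62 ± 0.22, adjusted p = 2.31e-08). THBS1, thrombospondin 1, had -1.25 ± 0.26 (adjusted p = 0.000579). The members that went the other way were SPARC, given above, and TIMP1, a metalloproteinase inhibitor (0.27 ± 0.044, adjusted p = 5.2e-06). LAMA3 and THBS1 were named after their values were seen. With loess normalization 7 members were lower and 2 higher. DESeq2 called 3 lower and 2 higher, and gave no adjusted p for FN1, LAMB3 and THBS1.

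Keratins moved in both directions, with 4 of 12 tested higher and 2 lower, against 10.6% and 3.25% of genes of at least 20 CPM. KRT7, a keratin of simple epithelia, was at 60.8, 70.4 and 66.1 CPM in NRF2 wells against 28.7, 42.7 and 24.8 CPM in HcRed wells (1.07 ± 0.16, adjusted p = 1.03e-06). KRT18, another simple keratin, was at 128, 132 and 136 CPM against 109, 91.1 and 84.1 CPM (0.50 ± 0.11, adjusted p = 0.000805). KRT17, a keratin of basal cells, was at 492, 464 and 400 CPM against 301, 306 and 315 CPM (0.56 ± 0.071, adjusted p = 3.11e-09). KRT8, the partner of KRT18, was near the threshold (0.55 ± 0.17, adjusted p = 0.0371) and lost its call on leaving out HcRed replicate 1 or 3 or NRF2 replicate 1 or 2, at log2 fold changes of 0.47 to 0.51. KRT6A, a keratin of activated epithelium, was lower at 200, 210 and 179 CPM against 340, 363 and 309 CPM (-0.77 ± 0.079, adjusted p = 3.23e-12). KRT19, a simple keratin, was lower too, at 227, 247 and 204 CPM against 344, 364 and 345 CPM (-0.62 ± 0.076, adjusted p = 8.89e-10). The keratins of simple epithelia therefore did not move as 1 group.

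Of 25 tested S100 and cornified envelope genes 3 were higher and 3 lower. The higher share was near that of all genes of at least 20 CPM (10.6%). S100A8, a calcium-binding protein released in inflammation, was at 928, 898 and 954 CPM in NRF2 wells against 697, 672 and 627 CPM in HcRed wells (0.49 ± 0.052, adjusted p = 6.66e-12). S100P was at 33.9, 20.2 and 21.8 CPM against 10.7, 15.7 and 7.51 CPM (1.14 ± 0.27, adjusted p = 0.00292), and without NRF2 replicate 1 it stood at 0.92 (adjusted p = 0.0566). S100A6 was 0.13 higher on the log2 scale and turned to -0.04 with loess normalization. S100A2 (-0.23), S100A11 (-0.24) and SERPINB1 (-0.84), an inhibitor of neutrophil proteases, were lower.

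Cytosolic ribosomal protein genes were called higher in 54 of 79 cases and lower in 4 with TMM scaling, at a median log2 fold change of 0.17, but with loess normalization 22 were higher and 21 lower at a median of 0.013. RPS14 was the member with the largest increase, at 2214, 2353 and 2276 CPM in NRF2 wells against 1449, 1642 and 1714 CPM in HcRed wells (0.52 ± 0.037, adjusted p = 9.5e-20). RPS21 went far the other way, at 2176, 2319 and 2311 CPM against 4533, 4288 and 4370 CPM (-0.94 ± 0.029, adjusted p = 1.84e-40). Ribosomal protein genes have many near-identical copies in the genome. Reads were placed on RefSeq transcripts, and whether such copies affected these levels was not tested.

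Of 42 nuclear subunits of oxidative phosphorylation 23 were called higher and 1 lower, and 40 were positive in sign, at a median of 0.25. In the most abundant eighth of all genes 306 of 1402 were higher and 60 lower. With loess normalization 14 were higher and 2 lower, at a median of 0.14. UQCRQ, of complex III, was at 3547, 3559 and 3705 CPM in NRF2 wells against 2694, 2770 and 2824 CPM in HcRed wells (0.40 ± 0.027, adjusted p = 3.66e-20). COX6C and COX7C, of complex IV, had 0.42 ± 0.034 and 0.36 ± 0.029. ATP5L, of the ATP synthase, had 0.40 ± 0.039, and NDUFB11, of complex I, had 0.68 ± 0.13 (adjusted p = 7.06e-05). SDHD, of complex II, which is outside the counted list, was at 667, 710 and 753 CPM against 419, 434 and 456 CPM (0.72 ± 0.060, adjusted p = 3.47e-16). ATP5E, another subunit of the ATP synthase, was the exception, at 79.7, 50.2 and 66.1 CPM against 101, 120 and 114 CPM (-0.80 ± 0.13, adjusted p = 2.68e-06). NDUFB11, SDHD and ATP5E were named after their values were seen.

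Genes of the ATF4 response, which is set off by amino acid shortage and endoplasmic reticulum stress, were called only on the lower side, in 4 of 21 cases at a median of -0.32. ATF4 itself was at 37.1, 39.7 and 45.1 CPM in NRF2 wells against 73.0, 73.3 and 63.1 CPM in HcRed wells (-0.76 ± 0.15, adjusted p = 0.000129). ASNS, asparagine synthetase, was at 72.6, 79.5 and 71.2 CPM against 112, 122 and 121 CPM (-0.65 ± 0.12, adjusted p = 1.85e-05). PSAT1, of serine synthesis, was at 63.9, 71.8 and 64.0 CPM against 94.3, 94.7 and 106 CPM (-0.54 ± 0.12, adjusted p = 0.00151). TRIB3, a pseudokinase induced by ATF4, was at 0, 2.79 and 0.727 CPM against 3.28, 7.12 and 9.01 CPM (adjusted p = 0.0343), and its call was lost on leaving out any 1 NRF2 well or HcRed replicate 2 or 3. With loess normalization 5 members were lower and none higher.

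Cell cycle genes were higher in 6 of 25 cases and lower in 1, which was CCND1, and with loess normalization 3 were higher and 3 lower. Among all genes of at least 20 CPM 10.6% were higher and 3.25% lower, and in the most abundant eighth 306 of 1402 were higher. AURKA, a mitotic kinase, was at 553, 534 and 521 CPM in NRF2 wells against 351, 358 and 370 CPM in HcRed wells (0.59 ± 0.064, adjusted p = 1.82e-11). HMGB2, a chromatin protein of dividing cells, had 0.44 ± 0.043, and CCNB1, cyclin B1, had 0.25 ± 0.047. Metallothioneins, which bind zinc and copper, were lower in 3 of 6 cases and higher in 1. MT2A was at 14677, 17917 and 19204 CPM against 21804, 20843 and 21688 CPM (-0.29 ± 0.026, adjusted p = 1.65e-14), and MT1X was called higher by 0.19. For MT2A the NRF2 wells lay farther apart than the HcRed wells. Its standard error and p-value, drawn mostly from the spread of all genes, may thus be too small. With loess normalization 4 metallothioneins were lower and 0 higher, with MT1X at 0.04.

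The proteasome, of which NRF2 is a known regulator, gave 4 higher and 1 lower in 31. Among all genes of at least 20 CPM 10.6% were higher and 3.25% lower, near the proteasome shares. These shares also stand beside the other counts of this paragraph. PSMA2 was the clearest of the higher proteasome genes (0.31 ± 0.037, adjusted p = 3.28e-10). PSMA7 was lower at 203, 208 and 189 CPM against 409, 379 and 406 CPM (-0.98 ± 0.077, adjusted p = 2.44e-17). With loess normalization 2 proteasome genes were higher and 2 lower. Heat shock genes gave 2 higher and 2 lower in 16, with HSPA8 and HSPD1 higher and BAG3 and HSP90AB1 lower. Glycolysis and hypoxia genes gave 1 higher, ENO1, and 2 lower, PFKP and PKM, in 16, but 0 higher and 5 lower with loess normalization. Sterol and lipid synthesis gave 2 lower in 20, IDI1 among them (-0.24). Interferon response genes gave 2 lower in 21, IFI27 and IFIT2. Chemokine and NF-kB genes gave IL18 higher and SAA1 lower in 14. MAPK and immediate early genes gave AREG alone, lower, in 20, and class I antigen presentation genes gave B2M alone, higher, in 9. Epithelial and mesenchymal identity genes gave CAV1 higher and ANXA1, CLDN1 and LGALS1 lower in 30. The higher calls of IL18, B2M and CAV1 were lost with loess normalization, which left 0 higher in each of their lists. No AHR target was called in 7 and no p53 target in 11.

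**Figure D3:**
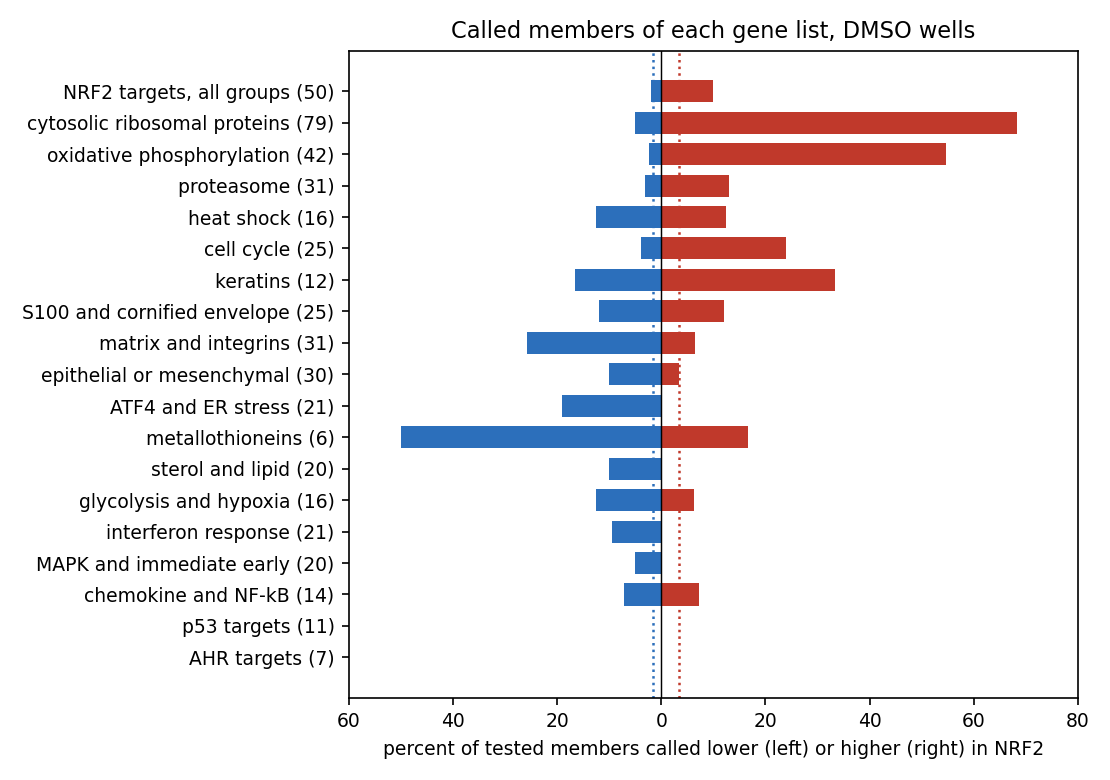
Percentage of the tested members of each gene list called higher (right, red) or lower (left, blue) in NRF2 vehicle wells, with the number tested in brackets; dotted lines mark the percentages over all 11217 genes tested, 3.39% higher and 1.52% lower. Ribosomal protein and oxidative phosphorylation genes stand out on the right, and metallothioneins and matrix genes on the left.

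The CSC and NNK wells held the same contrast in wells that the vehicle comparison did not use. Of the 380 genes higher under DMSO, 350 were also positive under CSC and 146 were called higher there, where 1.56% of 11062 tested genes were called higher and 1.32% lower. The 380 also held 4 genes called lower under CSC, MALAT1, MT1X, NCL and S100A6, and 0 called lower under NNK. Under NNK 371 were positive and 181 called higher, where 2.08% of 10760 tested genes were called higher and 1.00% lower. Of the 171 lower genes, 77 were called lower under CSC and 65 under NNK. The 146 genes were 38.4% of the vehicle calls and 84.4% of the CSC calls, and the 181 genes were 47.6% of the vehicle calls and 80.8% of the NNK calls. For the lower genes these shares were 45% and 52.7% with CSC and 38% and 60.2% with NNK. Median log2 fold changes of the higher genes shrank from 0.34 to 0.23 under CSC and 0.25 under NNK, and those of the lower genes from -0.79 to -0.42 and -0.38. The genes had been chosen by their vehicle values, so some shrinkage is built into this comparison.

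NFE2L2 differed by 1.86 under CSC and 1.65 under NNK. FTL (0.58 and 0.66) and FTH1 (0.61 and 0.46) were higher under both chemicals, and GSTP1 (-0.23 and -0.27) was lower under both. TXN and PRDX1 were called under neither, with values from 0.03 to 0.09, and GSTA4, at 0.46 and 0.52, was called under neither. TXNRD1 was called higher under NNK (0.39), and so was CBR1, a carbonyl reductase (0.43), and AKR1B10 was called higher under CSC (0.94). In all, 3 targets were higher and 2 lower under CSC, and 4 higher and 2 lower under NNK. The additional lower targets were GPX2 under CSC (-0.79) and IDH1 under NNK (-0.38). These comparisons do not test whether a chemical changed the effect of the construct.

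CPVL, SPARC, KRT7, S100P and HIST1H1A were called higher, and C3orf14, IFI27, KYNU, TMSB4X, FN1, ITGB1, KRT6A and KRT19 lower, under both chemicals. LAMB3 was not called under CSC (-0.52) or NNK (-0.32). ATF4 was called under neither (-0.25 and -0.29), ASNS under NNK (-0.62) and PSAT1 under NNK (-0.73). S100A8 was called under neither (0.01 and 0.19). Oxidative phosphorylation genes were higher in 15 of 42 cases and lower in 1 under CSC, and higher in 13 and lower in 1 under NNK. Ribosomal protein genes, whose direction depended on the scaling, gave 21 higher and 9 lower under CSC and 45 higher and 5 lower under NNK. Matrix and integrin genes gave 3 higher and 7 lower under CSC, and 2 higher and 3 lower under NNK.

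**Figure D4:**
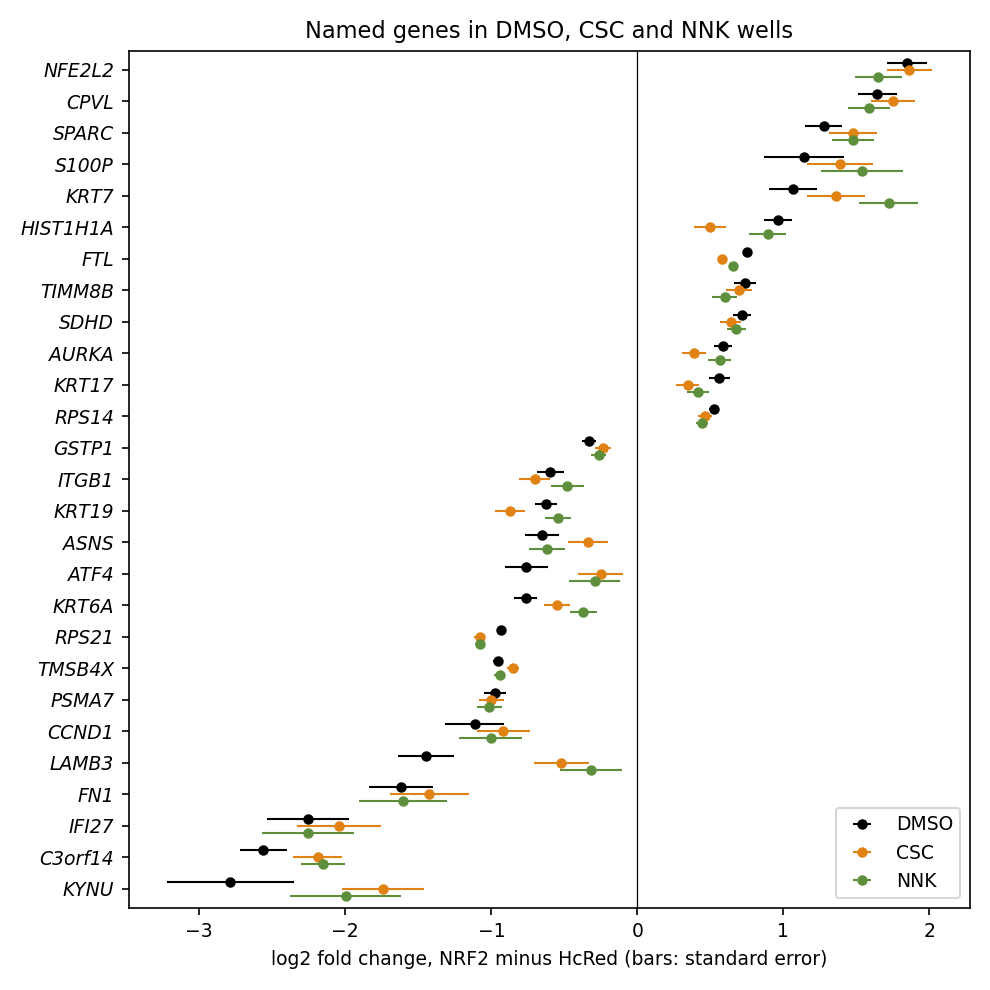
Log2 fold change, NRF2 minus HcRed, of 27 named genes in DMSO (black), CSC (orange) and NNK (green) wells, 3 wells per group; bars are standard errors. All 27 keep their sign in the 3 chemicals, with ATF4, LAMB3 and KRT6A nearer 0 under CSC and NNK than under DMSO.

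Against the FGFR1, NRG1 and PIK3CA overexpression wells, which share the NRF2 wells with the main comparison, 509 of 11442 tested genes were called (4.45%). NFE2L2 differed there by 1.73 and GSTA4 by 0.94, while FTL differed by 0.22. Of 49 NRF2 targets tested there, 5 were called higher and 0 lower. AKR1B10 (1.39) and CBR1 (0.495), not called against HcRed, were among the higher ones. FTL was not particular to NRF2 wells: it averaged 7219 CPM there, 7390 in PIK3CA, 7554 in FGFR1 and 11318 in CDKN2A wells, and 4622 in NRG1 wells. Nor were FTH1, TXN and PRDX1. They averaged 552, 3630 and 1763 CPM in NRF2 wells and 558, 3727 and 1813 CPM in PIK3CA wells. GSTP1, lower against HcRed, had 0.05 in this comparison and was not called, and KRT19, also lower against HcRed, had 0.23 and was not called. S100A8 differed by 3.98, but HcRed wells were high as well. It averaged 927 CPM in NRF2 and 665 in HcRed wells, against 55.1 in FGFR1, 83.6 in NRG1 and 46.6 in PIK3CA wells. Of all 11217 genes, 80 (0.713%) had their 3 NRF2 wells above the 21 other vehicle wells and 45 (0.401%) below them. Of the 380 higher genes 57 were above all other wells, and of the 171 lower genes 23 were below.

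The genes above all 21 other wells included NFE2L2, CPVL (133 CPM on average, up to 118 elsewhere), NR2F2 (29.9 against up to 18.4), KRT17 (452 against up to 315), S100P (25.3 against up to 15.7), SDHD (710 against up to 586) and GSTA4. Those below included TMSB4X (1525 against at least 2094), ATF4 (40.6 against at least 50.9), PSAT1 (66.6 against at least 86.1), KYNU (2.74 against at least 4.05) and WDR66 (18.1 against at least 25.5). Other differences from HcRed were shared with another population. SPARC averaged 136 CPM in NRF2, 137 in FGFR1 and 229 in PIK3CA wells, against 57 in HcRed wells. C3orf14 averaged 23.8 CPM in NRF2 and 28.1 CPM in PIK3CA wells, against population means of 104 to 292 CPM elsewhere. GNAS averaged 119 CPM in NRF2 and 108 CPM in PIK3CA wells against 250 CPM in HcRed wells, and HIST1H1A 220 and 245 CPM against 115 CPM. KRT7 averaged 65.8 CPM in NRF2, 65.4 in FGFR1 and 115 in PIK3CA wells, against 32.1 in HcRed and between 2.42 and 16.6 in the other 4 populations.

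Some of the called genes lay together on the chromosomes. Positions were those of hg19, and 3388 genes of at least 20 CPM were considered, of which 10.6% were higher and 3.25% lower. The boundaries used here were chosen after the values were seen, so the counts are descriptions. On 5q from 70 Mb on, 43 of 156 genes were higher and 0 lower, with a median log2 fold change of 0.25. On 11q from 100 Mb on, 22 of 43 were higher and 0 lower, with a median of 0.37. The last 10 of these genes along the arm had 9 higher and a median of 0.74, with single values from 0.40 for EI24 to 1.09 for PUS3. On 20q before 55 Mb, 26 of 61 were higher and 0 lower, with a median of 0.29, and beyond 55 Mb 2 of 11 were higher and 7 lower, with a median of -0.80. The remainder of 11q, before 100 Mb, had 3 higher and 8 lower of 96 and a median of -0.13. GSTP1, FTH1 and CCND1 lie there. Other arms with at least 5 calls and all of them on 1 side were 8q (19 higher, 0 lower of 93), 19q (17 and 0 of 57), 16p (9 and 0 of 44), 19p (9 and 0 of 56), 10p (0 and 6 of 35) and 20p (0 and 5 of 28).

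Several genes described above lie in these stretches, and those outside the naming rule, TIMM8B and SLMO2 among them, were named after their values were seen. SPARC, RPS14, UQCRQ, COX7C and KIF20A lie on distal 5q, SDHD, TIMM8B, ATP5L, HSPA8, IL18, STT3A, SPA17 and PUS3 on distal 11q, and AURKA and UBE2C on 20q before 55 Mb. TIMM8B, a mitochondrial import protein, was at 363, 359 and 372 CPM in NRF2 wells against 223, 234 and 207 CPM in HcRed wells (0.73 ± 0.075, adjusted p = 1.74e-12). STT3A, of N-glycosylation, was at 158, 159 and 174 CPM against 86.1, 77.6 and 113 CPM (0.86 ± 0.11, adjusted p = 5.51e-09). The lowered RPS21, PSMA7, ATP5E, GNAS, SLMO2 and PRPF6 all lie on 20q beyond 55 Mb, together with RTFDC1 (0.38) and RAE1 (0.39), which were higher. The first lowered gene of this stretch, GNAS, begins at 57414773. Some genes of distal 11q overlap each other (HYLS1 with PUS3, NCAPD3 with VPS26B), and their counts may not be independent.

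The regional differences were found in the wells of the other chemicals too. The medians under CSC and NNK were 0.21 and 0.23 for distal 5q, 0.35 and 0.43 for distal 11q, 0.28 and 0.31 for 20q before 55 Mb, and -0.74 and -0.68 for 20q beyond 55 Mb. With loess normalization the medians were 0.20, 0.36, 0.24 and -0.84 in the same order. The 4 stretches held 703 of the 11217 tested genes (6.27%), and 100 of the 380 higher genes (26.3%) and 13 of the 171 lower ones. Outside them, 51 of 75 ribosomal protein genes were higher and 3 lower with TMM scaling, 19 of 37 oxidative phosphorylation genes were higher and 0 lower, and 4 of 30 proteasome genes were higher and 0 lower. All 5 higher NRF2 targets and GSTP1 lay outside the 4 stretches, though FTL lies on 19q, an arm with a median log2 fold change of 0.26. Copy number was not measured, and the part of the regional pattern in the gene group counts beyond this division was not tested.

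PIK3CA wells resembled NRF2 wells in these stretches. In the median deviation of log2 CPM from the mean of all 24 vehicle wells, distal 11q stood at 0.32 to 0.38 in NRF2 and 0.27 to 0.28 in PIK3CA wells, and at -0.05 to 0.00 in HcRed wells. On 20q before 55 Mb the values were 0.41 to 0.43 in NRF2, 0.37 to 0.44 in PIK3CA and 0.09 to 0.15 in HcRed wells. On 20q beyond 55 Mb they were -0.56 to -0.42 in NRF2, -0.73 to -0.65 in PIK3CA and 0.14 to 0.27 in HcRed wells. On distal 5q they were 0.17 to 0.19 in NRF2, 0.17 to 0.27 in PIK3CA and -0.06 to -0.03 in HcRed wells. Populations differed from each other more widely than NRF2 differed from HcRed: on 20q before 55 Mb, CDKN2A wells stood at -0.55 to -0.51.

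**Figure D5:**
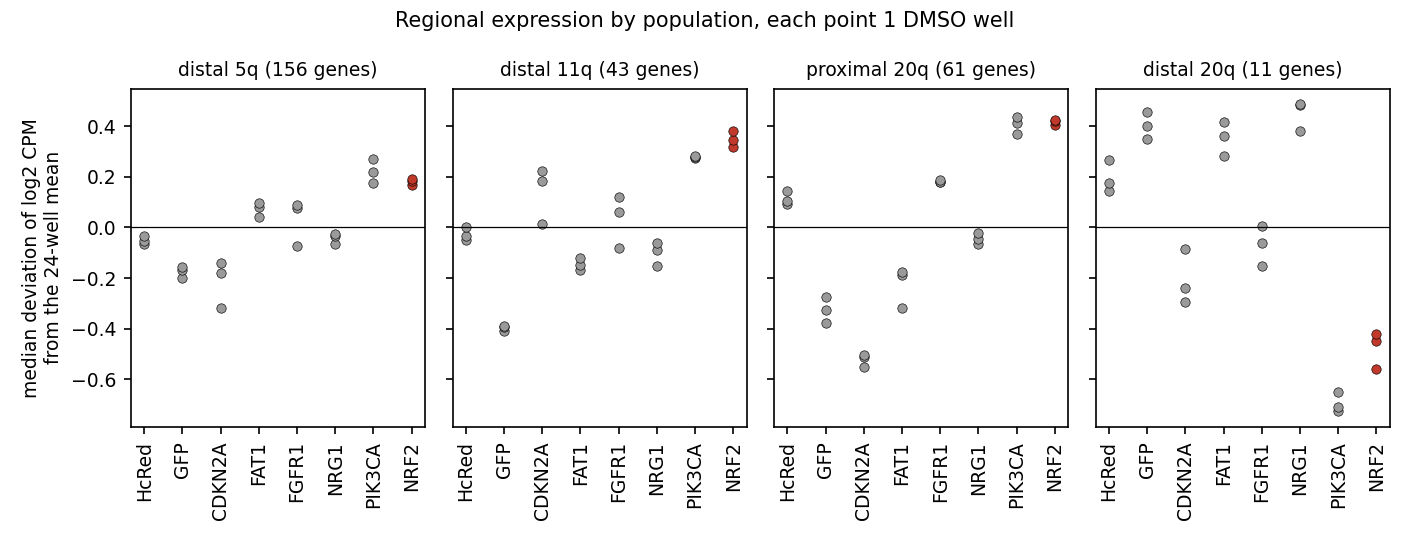
Median deviation of log2 CPM from the mean of the 24 vehicle wells, over the genes of 4 chromosome stretches (distal 5q from 70 Mb, distal 11q from 100 Mb, 20q before and beyond 55 Mb), for each vehicle well of the 8 populations; NRF2 wells are red. NRF2 and PIK3CA wells lie high in the first 3 stretches and low in the last.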

How the data were processed

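The authors deposited raw UMI counts per gene for each well, not normalized. According to the study's methods they received these count tables already made: BWA aln (0.7.10) had placed reads on RefSeq transcripts of hg19, and each UMI counted once per gene. Groups and replicate numbers came from the sample titles. Gene lists, members and named genes were chosen with earlier results of these data known.

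Genes with a mean count above 1 in the 6 wells entered limma-voom (limma 3.58.1, R 4.3.3) with TMM factors (edgeR 4.0.16), two-sided, with Benjamini-Hochberg adjustment over all tested genes and a threshold of 0.05. The same fit was made separately for the CSC wells, the NNK wells and the NRF2 wells against the FGFR1, NRG1 and PIK3CA wells. Named genes were NFE2L2, the 12 higher and 12 lower genes of largest change among called genes of at least 20 CPM with separate wells, the 5 of smallest adjusted p in each direction, up to 6 called members of each list, and every NRF2 list member. Genes named beyond this are marked. The printed CPM values used TMM factors over the vehicle wells and the NRF2 and HcRed wells of CSC and NNK. Replicate wells differed by more than sampling noise (chi-square per degree of freedom 1.17 to 1.37), so each well was counted as 1 sample. Of 23895 listed genes, 22228 were placed by symbol on an autosome or X (hg19). The fits were tested on simulated counts. DESeq2 (1.42.0), edgeR's quasi-likelihood test, other filters and scalings, a replicate block and single-well removal were tried, and loess normalization was added after the data were seen. BaP wells entered no comparison. Protein sequences were not used here, and some named genes are not reported here.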

Additional observations from a re-analysis of the deposited data

Results flagged for a closer look

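Wells exposed to benzo[a]pyrene (BaP), which no comparison used, showed the same difference in 3 genes. In 3 NRF2 wells NFE2L2 averaged 138 CPM (128 to 149), against 55.3 to 59.5 CPM in 3 HcRed wells. FTL averaged 14619 CPM in the NRF2 wells, against 8053 to 8707 CPM in the HcRed wells. CPVL averaged 125.4 CPM, against 44.9 to 57.1 CPM. Of the 3 HcRed wells 2 carry replicate numbers of 2 digits, which the labels do not explain, and no test was made.

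Of the genes called higher under DMSO 4 were called lower under CSC. A pair of these, with every CSC well on the opposite side, is given here, and the difference between the chemicals was not tested. MT1X, a metallothionein, had a log2 fold change of 0.19 under DMSO (adjusted p = 0.000162, limma-voom) and -0.36 under CSC (adjusted p = 4.72e-08). S100A6 had 0.13 under DMSO (adjusted p = 2.35e-07) and -0.11 under CSC (adjusted p = 0.000113). Neither DMSO call held with loess normalization, where MT1X had 0.04 (adjusted p = 0.546) and S100A6 -0.04 (adjusted p = 0.0507).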

How the results depend on the processing

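The 551 vehicle calls became 351 with DESeq2, which gave no adjusted p for 9134 of the tested genes, and 281 with all 8 vehicle populations in 1 fit. The 380 higher calls became 222 with loess normalization and 192 with all populations, and the 171 lower calls 65 with DESeq2 and 89 with all populations. Leaving out 1 well gave 418 to 520 calls, of which 86 to 167 were lower, with 113, 86 and 110 lower without NRF2 replicates 1, 2 and 3. Higher NRF2 targets numbered 5, and 2 with loess normalization or all populations. Lower targets numbered 1, but 4 with edgeR, 3 with a mean count above 10, limma-trend or the replicate block, 2 with loess, median-ratio factors, no filter or the 10000 most variable genes, and 1 to 2 on leaving out 1 well. CSC calls ran from 210 (without HcRed replicate 2) to 359 on leaving out 1 well, NNK calls from 237 to 323, and 192 with DESeq2. Calls against the other overexpression wells ran from 304 to 675, with 305, 304 and 336 without NRF2 replicates 1, 2 and 3, and 306 with DESeq2. TXN (-0.026), MGST1 (-0.031) and S100A6 (-0.044) reversed with loess normalization, and SLC7A11 ran from -0.039 to 0.326 on leaving out 1 well, negative without HcRed replicate 1 or NRF2 replicate 3. Of these, MGST1 and SLC7A11 were not called in the vehicle comparison. Loess normalization removes a trend of fold change with abundance by construction. Whether that trend was technical was not tested, nor was the cause of any of these shifts. Of 1502 alternative values, 1408 kept their direction and call or, for counts, their size.

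Wells with the same replicate number were not shown to be paired: deviations correlated at 0.0175 to 0.0188, each well best with its own number, which is a hint from the data only. With the replicate block 536 genes were called, 378 higher and 158 lower. Genes near 10 CPM carried standard errors of about 0.32, as GCLM did (0.319), so small changes of such genes were not detectable at this depth.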

Other observations

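In the BaP wells named above, C3orf14 and IFI27, among the genes most lowered under DMSO, were also lower in NRF2 than in HcRed wells. C3orf14 averaged 31.9 against 123 CPM and IFI27 14 against 34.2 CPM, and the 3 wells of each group did not overlap. The other lowered genes were not looked at in these wells.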
